A study of Mus musculus with 4 samples.

Results

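Condensin and cohesin are ring-shaped protein complexes that fold and hold chromosomes, and 10 of their subunit genes are described here. Each ring is built on a pair of SMC ATPases (structural maintenance of chromosomes) that is closed by a further protein, the kleisin. The condensin genes are *Smc2* and *Smc4*, *Ncapd2*, *Ncapg* and *Ncaph* of condensin I, and *Ncapd3* and *Ncapg2* of condensin II. The cohesin genes are *Smc1a*, *Smc3* and *Rad21*. They were chosen by name, and each is read by exactly 1 probe set that names no other gene. All 10 were measured, among 19938 genes with such a probe set. No gene had to be chosen among several probe sets.

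RNA was from bone marrow cells of 5-month-old mice that were backcrossed for 10 generations to FVB/N. The groups are wild type mice (*lal+/+*, labelled WT) and mice in which lysosomal acid lipase (LAL), the enzyme that hydrolyzes cholesteryl esters and triglycerides in lysosomes, is knocked out (*lal−/−*, labelled LALKO). The labels name no treatment. There are 2 Affymetrix Mouse Gene 1.0 ST arrays for each genotype. The labels give the cells as CD11b+ and Gr-1+ myeloid-derived suppressive cells (MDSCs), and the methods describe magnetic selection with an anti-Ly6G antibody. The methods give a number of mice but do not tie the mice to the arrays. The p-values therefore rest on the scatter between 2 arrays a genotype, of the gene itself and, where variances are moderated, of all probe sets. That scatter may be technical. All levels below are log2 values after quantile normalization, and all differences are *lal−/−* minus *lal+/+*.

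Condensin compacts chromosomes when cells enter mitosis. Condensin II lies in the nucleus throughout the cell cycle, whereas condensin I reaches the chromosomes after the nuclear envelope breaks down. Both share the SMC2 and SMC4 proteins and differ in their kleisin and in their HEAT repeat subunits. Cohesin holds sister chromatids together from replication to anaphase, and it also forms chromatin loops in cells that do not divide. Granulocyte precursors of the bone marrow divide up to the myelocyte stage, and later stages do not.

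*Lipa*, which encodes LAL, had a level of 9.50 and 9.05 on the *lal+/+* arrays against 7.37 and 7.49 on the *lal−/−* arrays, a difference of -1.85 in the direction of the labels. The *lal−/−* levels were still above 6.29, the 95th percentile of olfactory receptor probe sets in that genotype. The deposited values had array medians of 6.30 and 6.36 on the *lal+/+* arrays and 6.15 on each *lal−/−* array. Quantile normalization removed this difference, which went with genotype and whose source was not tested. Pearson's r between arrays, taken over probe sets that are not independent of each other, was 0.984 and 0.987 within the genotypes. Between them it was 0.922 to 0.932. A gene was called higher or lower at an adjusted p under 0.05 from limma with Benjamini-Hochberg adjustment and a fold of at least 2. By this rule 7.41% of the 21789 probe sets tested were called higher in *lal−/−* cells and 3.44% were called lower. By gene, 1508 were higher and 646 lower, against 2619 and 467 with a common median and 2013 and 633 with the values as deposited. Over all genes the log2 fold change had a median of 0.08.

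Of the 7 condensin genes 4 were called higher in *lal−/−* cells, against 7.41% of all probe sets. They were *Ncaph*, *Ncapg*, *Ncapg2* and *Smc2*, 2.77-fold to 3.39-fold higher. *Ncapd2* and *Ncapd3* were higher on each *lal−/−* array than on each *lal+/+* array and passed the adjusted p but not the fold. Such separation was common, since 8291 of all 19938 genes were higher on each *lal−/−* array and 4801 were lower on each. *Smc4* had a lower level in *lal−/−* cells after quantile normalization, a direction that flipped under other scalings. Of the 3 cohesin genes 0 were called with limma, and 1, *Rad21*, had an unadjusted p under 0.05, against 8085 of all 19938 genes. An ordinary linear model without moderated variances called 0 of the 10 genes and 0 of all 19938 genes. By this model 5 condensin and 2 cohesin genes had an unadjusted p under 0.05, against 5691 of all genes. In it the 4 condensin genes had adjusted p-values of 0.057 to 0.127. In RNA of bulk cells, a change in how many cells of a type are present and a change in RNA per cell cannot be told apart. On the same arrays all 5 promyelocyte and primary granule markers were higher in *lal−/−* cells, and all 5 measured B cell markers and all 5 macrophage markers were lower. Their part in the condensin and cohesin values was not tested.

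**Figure D1:**
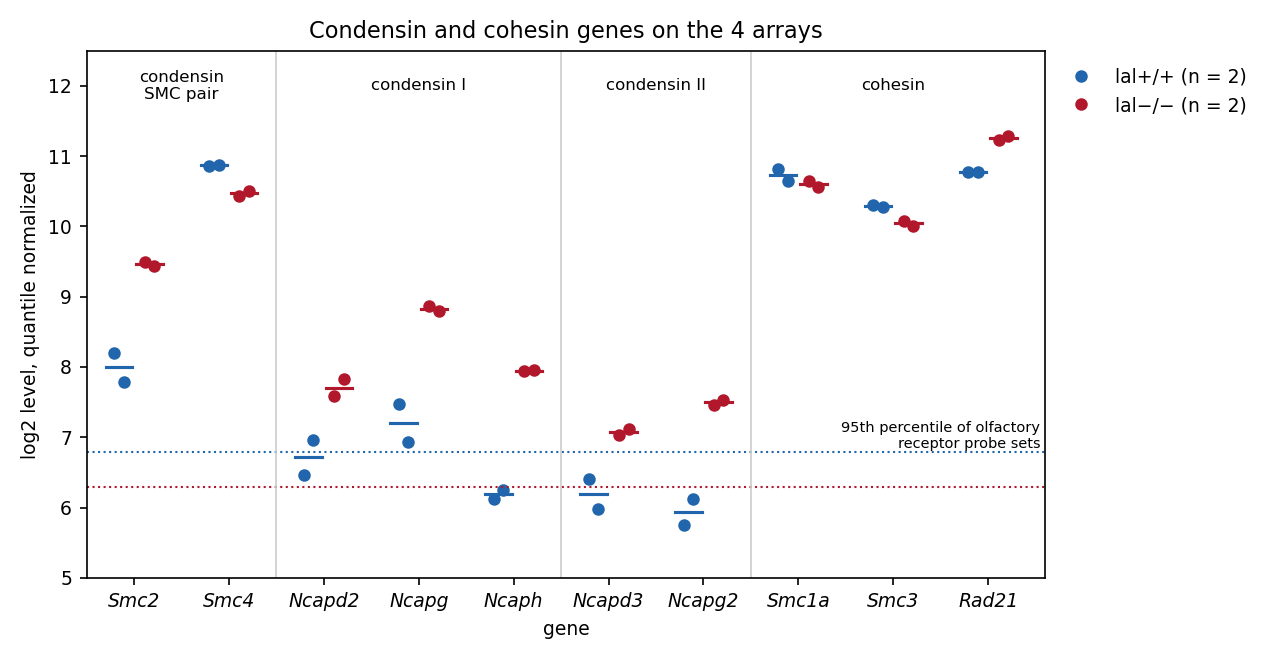
Log2 level after quantile normalization (vertical axis) of the 10 genes (horizontal axis), with 1 point for each array, a bar at the mean of the 2 arrays of a genotype, and dotted lines at the 95th percentile of olfactory receptor probe sets in each genotype (6.79 for *lal+/+*, 6.29 for *lal−/−*). The *lal−/−* points of *Smc2*, *Ncapd2*, *Ncapg*, *Ncaph*, *Ncapd3*, *Ncapg2* and *Rad21* lie above the *lal+/+* points, as for 8291 of all 19938 genes. The points of *Smc1a*, *Smc3* and *Smc4* lie close to each other or lower in *lal−/−* cells, a direction that flipped under other scalings.

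Under quantile normalization the SMC pair of condensin had differences of opposite sign. *Smc2* had a level of 8.20 and 7.79 on the *lal+/+* arrays against 9.49 and 9.44 on the *lal−/−* arrays. Every *lal−/−* array was above both *lal+/+* arrays, and the *lal+/+* arrays were the more scattered. The log2 fold change was 1.47 (standard error 0.16, 95% interval 1.08 to 1.86, adjusted p = 0.000806 from limma), which is 2.77-fold. *Smc4*, its partner in every condensin ring, had 10.86 and 10.87 on the *lal+/+* arrays against 10.43 and 10.51 on the *lal−/−* arrays. Both *lal−/−* arrays were below both *lal+/+* arrays, by at least 0.35. The difference was -0.40 (standard error 0.12, 95% interval -0.68 to -0.11, adjusted p = 0.0463 from limma), 1.32-fold lower and under the fold threshold. The direction of *Smc4* depended on the scaling. It was 0.21 (adjusted p = 0.304) once all arrays had a common median and 0.03 (adjusted p = 0.881) with the values as deposited, and over all alternatives its adjusted p ran from 0.00214 to 0.881. *Smc2* stayed called at 1.99 and 1.81 in these settings.

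Among the subunits of condensin I, *Ncaph* encodes the kleisin, and *Ncapd2* and *Ncapg* encode the HEAT repeat subunits. *Ncaph* had a level of 6.13 and 6.25 on the *lal+/+* arrays against 7.94 and 7.95 on the *lal−/−* arrays. The genotypes were 1.70 apart at their nearest arrays, whereas the arrays of a genotype were at most 0.12 apart. *Ncaph* had a difference of 1.76 (standard error 0.12, 95% interval 1.47 to 2.05, adjusted p = 0.000158 from limma), a 3.39-fold increase. Only 1.70% of the probe sets tested had a log2 fold change as high.

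*Ncapg* had a level of 7.47 and 6.94 on the *lal+/+* arrays against 8.87 and 8.79 on the *lal−/−* arrays. The 2 *lal+/+* arrays differed by 0.53, more than for any other of the 10 genes, and still lay 1.32 or more below the *lal−/−* arrays. The increase was 1.63 (standard error 0.19, 95% interval 1.18 to 2.07, adjusted p = 0.000945 from limma), or 3.09-fold. *Ncapd2* had 6.46 and 6.96 on the *lal+/+* arrays against 7.59 and 7.82 on the *lal−/−* arrays. The groups did not overlap, but the spread was wide in both genotypes (SD 0.35 and 0.16, n = 2 arrays each). Its difference of 0.995 (standard error 0.19, adjusted p = 0.00796 from limma), 1.99-fold, fell just short of the threshold. *Ncapd2* was called after every array was shifted to a common median (1.23), with the values as deposited (1.05), without *lal+/+* replicate 2 (1.25) and without *lal−/−* replicate 1 (1.11).

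For condensin II, *Ncapg2* had a level of 5.75 and 6.13 on the *lal+/+* arrays against 7.46 and 7.53 on the *lal−/−* arrays. Both *lal−/−* arrays were at least 1.33 above the *lal+/+* arrays. This was an increase of 1.56 (standard error 0.16, 95% interval 1.18 to 1.93, adjusted p = 0.000570 from limma), 2.94-fold. *Ncapd3* had 6.41 and 5.98 on the *lal+/+* arrays against 7.03 and 7.12 on the *lal−/−* arrays. The arrays did not overlap, yet the difference of 0.88 (standard error 0.17, adjusted p = 0.00802 from limma), 1.84-fold, was under the fold threshold. It was called without *lal+/+* replicate 1 (1.10). *Ncaph2*, the kleisin of condensin II and not among the 10 genes, behaved like *Ncapd3* in this respect. It had 6.75 and 6.95 on the *lal+/+* arrays, 7.50 and 7.67 on the *lal−/−* arrays, and a difference of 0.74 (standard error 0.14, adjusted p = 0.00713 from limma).

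The 4 condensin increases called (1.47 to 1.76) had overlapping 95% intervals, so their order is not known. The intervals of *Ncapd2* (0.54 to 1.45) and *Ncapd3* (0.48 to 1.28) overlapped those of *Smc2*, *Ncapg* and *Ncapg2*. The interval of *Ncaph* started above the end of both. The interval of *Smc4* overlapped none of the other 6.

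Genes of olfactory receptors, mostly silent outside the nose, served as a measure of background. Their 1035 probe sets had a 95th percentile of 6.79 in *lal+/+* and 6.29 in *lal−/−* cells. In *lal+/+* cells the mean levels of *Ncapd2* (6.71), *Ncaph* (6.19), *Ncapd3* (6.19) and *Ncapg2* (5.94) lay below it. In *lal−/−* cells all 10 genes lay above it. The fold changes of these 4 genes may therefore be smaller than the change of the transcript. The same limit holds for other called genes with a *lal+/+* mean below it, namely *Esco2*, *Sgo1*, *Kif4*, *Cdca8*, *Plk1*, *Foxm1*, *Kit* and the 5 promyelocyte and primary granule markers. The SMC genes of condensin and the 3 cohesin genes were above this level in both genotypes. In *lal−/−* cells the B cell markers *Ms4a1* (5.23) and *Ebf1* (5.16) and the macrophage markers *Mrc1* (5.18) and *Spic* (5.68) lay below 6.29. Their decreases may likewise be smaller than the change of the transcript.

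Among the cohesin genes, *Rad21*, which encodes the kleisin cut by separase at anaphase, had a level of 10.77 on each *lal+/+* array and 11.23 and 11.29 on the *lal−/−* arrays. The 2 *lal+/+* arrays differed by less than 0.01, and both *lal−/−* arrays lay at least 0.46 higher. The difference of 0.49 (standard error 0.12, 95% interval 0.21 to 0.77, adjusted p = 0.0208 from limma), 1.41-fold, passed the adjusted p but not the fold. After every array was shifted to a common median it was 1.04 (adjusted p = 0.000323) and was called, with the values as deposited it was 0.86, and over all alternatives the adjusted p ran from 0.000299 to 0.152.

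*Smc1a* had a level of 10.81 and 10.65 on the *lal+/+* arrays against 10.65 and 10.56 on the *lal−/−* arrays, and the genotypes overlapped at 10.65. The difference was -0.13 (standard error 0.13, 95% interval -0.43 to 0.18, adjusted p = 0.505 from limma). *Smc3*, its partner in the cohesin ring, had 10.30 and 10.27 on the *lal+/+* arrays against 10.08 and 10.01 on the *lal−/−* arrays. The *lal−/−* arrays were lower, by 0.19 at the nearest arrays, and the difference of -0.24 (standard error 0.12, 95% interval -0.53 to 0.04, adjusted p = 0.182 from limma) did not pass the test. These intervals exclude a 2-fold change in either direction under quantile normalization. The sign of both turned with the scaling, to 0.47 (adjusted p = 0.0417) and 0.42 (adjusted p = 0.0551) once all arrays had a common median and to 0.29 (adjusted p = 0.164) and 0.24 (adjusted p = 0.229) with the values as deposited. Over all alternatives the adjusted p ran from 0.0417 to 0.841 for *Smc1a* and from 0.0496 to 0.552 for *Smc3*.

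**Figure D2:**
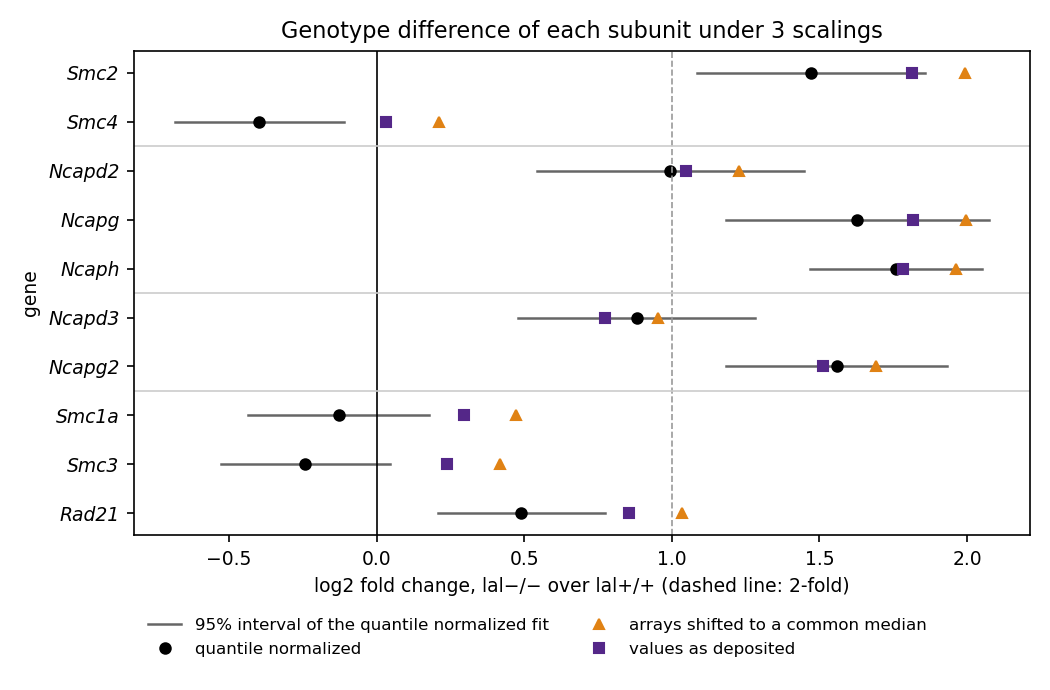
Log2 fold change of *lal−/−* over *lal+/+* cells (horizontal axis) for each of the 10 genes (vertical axis), as black circles with the 95% interval of the limma fit on quantile normalized values, orange triangles for arrays set to a common median, and purple squares for the values as deposited. *Smc4*, *Smc1a* and *Smc3* cross 0 between scalings, whereas *Smc2*, *Ncapg*, *Ncaph* and *Ncapg2* lie to the right of the dashed 2-fold line in all 3.

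Condensin was then set against cohesin on each array. Each gene was centred on its mean over the 4 arrays, so that levels of different probe sets were not compared. The mean over the 7 condensin genes was -0.54 and -0.59 on the *lal+/+* arrays against 0.54 and 0.59 on the *lal−/−* arrays. The mean over the 3 cohesin genes was 0.01 and -0.05 on the *lal+/+* arrays against 0.04 and 0.00 on the *lal−/−* arrays. After quantile normalization the condensin values were thus separated by genotype and the cohesin values overlapped. As deposited, *Smc1a* had 10.65 and 10.39 on the *lal+/+* arrays against 10.86 and 10.78 on the *lal−/−* arrays. *Smc3* had 10.14 and 9.96 against 10.33 and 10.26, and *Rad21* had 10.62 and 10.51 against 11.40 and 11.44. These deposited cohesin values did not overlap between the genotypes. With quantile normalization the mean log2 fold change was 1.13 for condensin and 0.04 for cohesin, a difference of 1.09. The cohesin mean combined 0.49 for *Rad21* with -0.13 for *Smc1a* and -0.24 for *Smc3*.

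**Figure D3:**
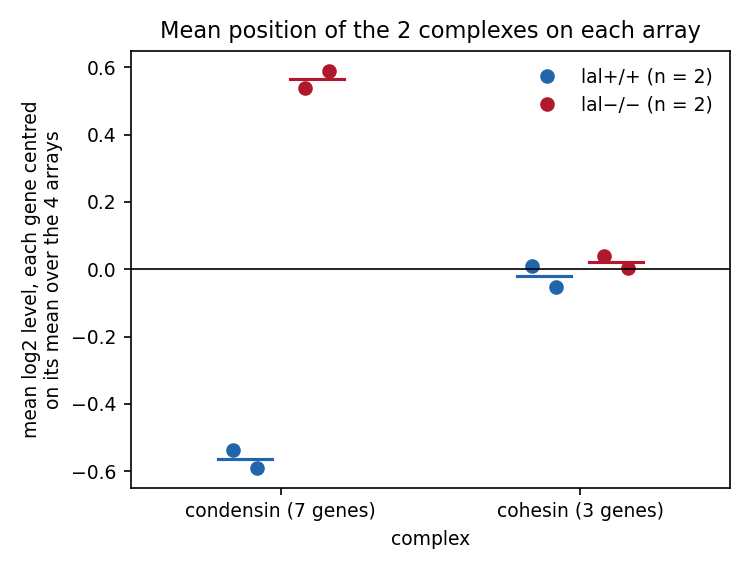
Mean log2 level after quantile normalization of the 7 condensin and the 3 cohesin genes on each array (vertical axis, each gene centred on its mean over the 4 arrays), by complex (horizontal axis), with 1 point for each array and a bar at the mean of the 2 arrays of a genotype. The condensin means lie near -0.54 and -0.59 in *lal+/+* and 0.54 and 0.59 in *lal−/−* cells, and the cohesin means lie between -0.05 and 0.04.

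The condensin minus cohesin difference was 0.79 once all arrays had a common median and with the values as deposited, which give the same value because a shift of a whole array cancels. In these settings the mean change of cohesin was 0.64 and 0.46 and that of condensin 1.43 and 1.25. *Rad21* (1.04 and 0.86) then lay above *Ncapd3* (0.95 and 0.77), so even without *Smc4* the genes of the complexes no longer fell into separate ranges, as they had after quantile normalization. Because the genes were chosen with results known, no p is given for this difference, and the smallest two-sided p of an exact permutation test is 0.333 for 2 arrays against 2. The cohesin genes and *Smc4* are bright. Among 877 probe sets with a mean level of 10 to 12, a range set after the values were seen, the median log2 fold change was 0.22 after quantile normalization, 0.76 with a common median and 0.58 as deposited. *Smc1a*, *Smc3* and *Smc4* lay below this median in all 3 scalings, and *Rad21* lay above it in all 3.

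Promoter sequences were looked at because 4 condensin genes were called in the same direction. RefSeq windows on GRCm38.p6, from 250 bases before to 50 bases after a start site, were found for 8 of the 10 genes, with 2 windows for *Ncapd3*. *Smc4* and *Rad21* had none. They were searched on both strands for the cell cycle homology region (CHR, TTTGAA), which is known from genes expressed late in the cell cycle, for E2F motifs (TTTCGCGC, TTTGGCGC or TTTCCCGC), and for the CCAAT box (CCAAT). No motif contains another and no matches overlapped in these windows. A match is a description of the letters, not of binding.

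The CHR letters were found in 5 of the 9 windows, those of *Smc2*, *Ncapg*, *Ncapd2* and *Ncapg2* and the downstream window of *Ncapd3*. Of all 32851 windows 17.9% hold them. An E2F motif was found in the windows of *Ncapg*, *Ncapd2*, *Ncapg2* and *Smc1a*, and in 1.84% of all windows. The CCAAT letters were in the windows of *Smc2*, *Ncapg*, *Ncapd2* and *Smc1a*, and in 37.4% of all windows. *Ncaph* and *Smc3* had none of these letters in their windows. The CHR match began 30 bases before the start site of *Ncapg* and 18 bases before that of *Ncapg2*, 123 bases before that of *Ncapd2* and 145 bases before that of *Smc2*. *Smc2* had another CHR match 27 bases after its start site, and that of *Ncapd3* lay 249 bases before. Shown are stretches around the CHR matches of *Ncapg*, *Ncapg2* and *Ncapd2*, the upstream CHR match of *Smc2* and an E2F match of *Ncapd2*. Stretches of *Ncapd3*, *Ncaph* and *Smc1a* are not printed. All are written 5′ to 3′ in the direction of the gene, with matches in capitals. A stretch of *Smc3* without a match is shown beside them.
Ncapg, chr5:45669883-45669912, plus strand, CHR: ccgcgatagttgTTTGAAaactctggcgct
Ncapg2, chr12:116405406-116405435, plus strand, CHR: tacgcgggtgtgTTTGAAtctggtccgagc
Ncapd2, chr6:125191692-125191721, minus strand, CHR: cagccgttgaggTTTGAAcagggaattgcg
Ncapd2, chr6:125191587-125191616, minus strand, E2F motif: tagcttgaaaaccatctcgttgTTTGGCGC
Smc2, chr4:52439061-52439160, plus strand, CHR on the other strand and CCAAT: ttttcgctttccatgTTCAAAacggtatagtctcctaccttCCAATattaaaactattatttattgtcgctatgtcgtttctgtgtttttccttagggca
Smc3, chr19:53600296-53600395, plus strand, no match: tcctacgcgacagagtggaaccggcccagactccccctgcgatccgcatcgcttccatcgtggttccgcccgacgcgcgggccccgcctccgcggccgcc

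Other genes that act with these rings were taken from lists of 48 genes, of which 47 were measured. The lists were chosen with earlier results of these data known, so their counts are a description and not a test. 13 of them were called higher in *lal−/−* cells and 4 were called lower, against 7.41% and 3.44% of all probe sets. With a common median 17 were higher and 2 lower, against 2619 and 467 of all 19938 genes. With the values as deposited 14 were higher and 2 lower, against 2013 and 633. Their median was 0.32, against 0.08 for all genes. *Stag1* and *Stag2*, which encode the alternative HEAT repeat subunits of cohesin, each had a difference of 0.32, with an adjusted p of 0.229 and 0.132 from limma. With a common median *Stag1* had 0.88 (adjusted p = 0.00670) and *Stag2* 0.98 (adjusted p = 0.00116), and with the values as deposited 0.70 (adjusted p = 0.0218) and 0.80 (adjusted p = 0.00441), all under the fold threshold. *Stag1* also ranged from 0.09 without *lal+/+* replicate 2 to 0.55 without *lal+/+* replicate 1. None of 5 genes of cohesin loading and release was called (0 with limma and 0 with the ordinary model, and 1 at an unadjusted p under 0.05 in each). That gene, *Nipbl*, the loader of cohesin, had 10.46 and 10.38 on the *lal+/+* arrays against 9.72 and 9.63 on the *lal−/−* arrays. Both *lal−/−* arrays were lower, and the difference of -0.75 (standard error 0.12, adjusted p = 0.00411 from limma) was under the fold threshold. It was -0.10 (adjusted p = 0.672) with a common median and -0.28 (adjusted p = 0.173) with the values as deposited. Of 4 meiotic cohesin genes 0 were called with limma and 0 with the ordinary model, with 1 and 0 at an unadjusted p under 0.05. Over all 19938 genes 8085 with limma and 5691 with the ordinary model had an unadjusted p under 0.05.

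Of 8 genes that make, protect or end cohesion in dividing cells 3 were called higher, against 7.41% of all probe sets. The median was 0.62. *Sgo2a*, a shugoshin that protects cohesin at centromeres, had 6.87 and 6.78 on the *lal+/+* arrays against 8.66 and 8.80 on the *lal−/−* arrays, an increase of 1.90 (standard error 0.13, adjusted p = 0.000132 from limma). *Esco2*, the acetyltransferase that locks cohesin during replication, rose by 1.47 (adjusted p = 0.000255), and *Sgo1* by 1.43 (adjusted p = 0.00282). *Cdca5*, which encodes sororin, had a difference of 0.88 and was not called, except without *lal−/−* replicate 2 (1.15). *Pttg1*, which encodes securin, had -0.39, a sign that turned to 0.24 with a common median and 0.06 with the values as deposited.

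Partners of condensin on mitotic chromosomes were mostly called higher. Of 11 measured genes 8 were higher and 1 was lower, against 7.41% and 3.44% of all probe sets, and the median was 1.46. *Cdk1*, the kinase that activates condensin at entry into mitosis, rose by 2.49 (standard error 0.13, adjusted p = 6.64e-05 from limma), from 7.18 and 7.01 on the *lal+/+* arrays to 9.59 on both *lal−/−* arrays. *Kif4*, a chromosome-bound kinesin, rose by 2.36 and *Top2a*, the topoisomerase of mitotic chromosomes, by 1.66. Another probe set of *Top2a* had 0.93 (adjusted p = 0.0400 from limma) and was not called, and the mean of both gave 1.29. The 4 genes of the chromosomal passenger complex rose too, *Cdca8* by 2.31, *Birc5* by 1.56, *Aurkb* by 1.12 and *Incenp* by 1.10. *Aurkb* was under the fold threshold (0.86) without *lal+/+* replicate 1. *Plk1* rose by 1.46. *Mki67*, the gene of the Ki-67 antigen that coats mitotic chromosomes, had a difference of 0.52 and was not called. With a common median it was called higher (1.08), and with the values as deposited it had 0.90. *Akap8*, an anchoring protein that recruits condensin, had a difference of -1.64, or -1.03 with a common median. Its mean level was 10.63 in *lal+/+* and 8.99 in *lal−/−* cells.

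Of 6 measured regulators of genes of the G2 and M phases, 2 were higher, against 7.41% of all probe sets, and the median was 0.88. *Foxm1* rose by 1.43 (adjusted p = 0.000276 from limma). *Lin54*, which encodes the CHR-binding subunit of the MuvB core, rose by 1.17 (adjusted p = 0.00107 from limma). The others were not called: *Lin9* had 0.96, *Lin37* 0.80, *Mybl2* 0.12 and *Lin52* -0.43.

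The other SMC genes that were called were lower. Of 8 genes of the SMC5/SMC6 complex, which acts in DNA repair, 2 were lower, against 3.44% of all probe sets, and the median was -0.01. *Smc6* had 11.12 and 11.10 on the *lal+/+* arrays against 9.78 and 9.73 on the *lal−/−* arrays, a difference of -1.35 (standard error 0.12, adjusted p = 0.000323 from limma). *Slf2*, which links this complex to DNA lesions, had -1.02, and its other probe set (-0.62) was not called. With a common median and with the values as deposited, *Smc6* (-0.76 and -0.94) and *Slf2* (-0.70 and -0.88) missed the fold threshold, as *Slf2* did without *lal+/+* replicate 1 (-0.91) and without *lal−/−* replicate 1 (-0.97). *Smc5* had -0.58 and was not called, and it had -0.12 and -0.30 under these scalings. *Nsmce2*, a SUMO ligase of the complex, had 0.80 and was not called, but it was called higher under both scalings (1.45 and 1.27). *Smchd1*, an SMC family protein of the inactive X chromosome, had 10.01 and 9.99 on the *lal+/+* arrays against 8.21 and 8.33 on the *lal−/−* arrays, a difference of -1.73 (standard error 0.12, adjusted p = 0.000169 from limma). Its other probe set was lower as well (-1.40).

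**Figure D4:**
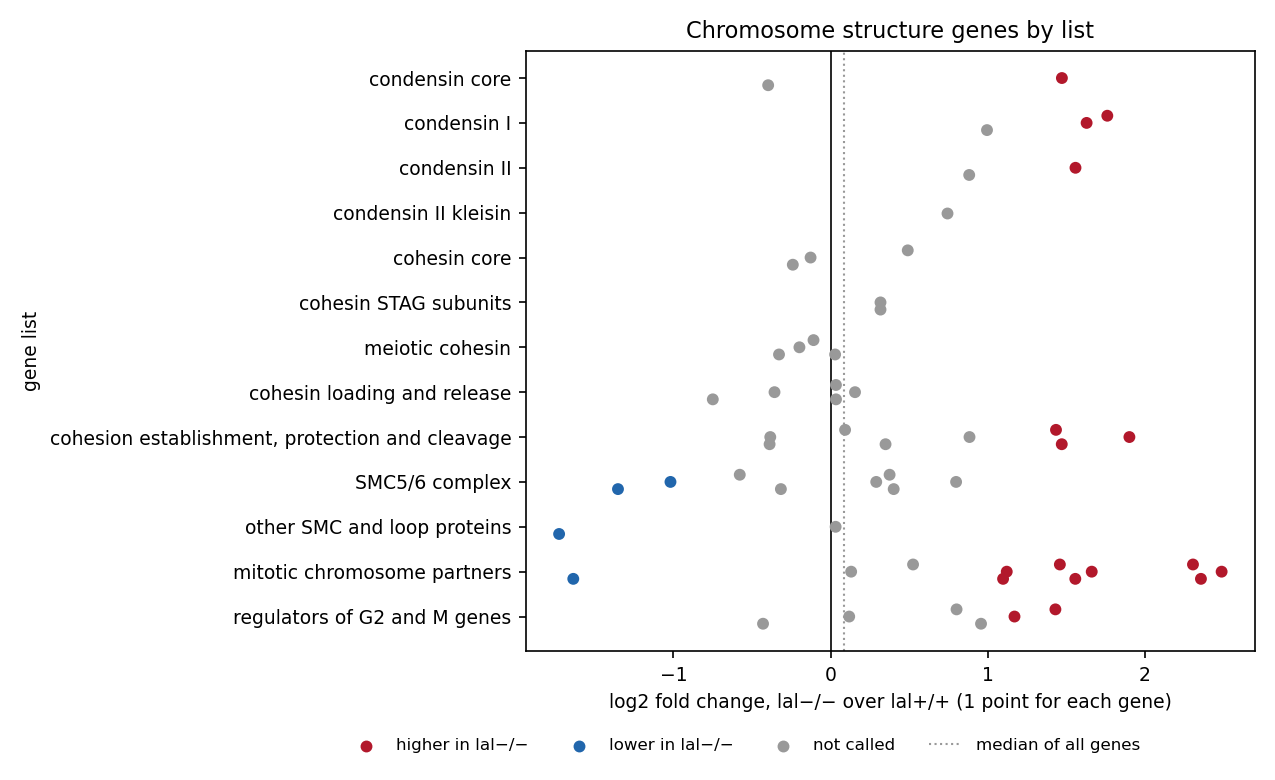
Log2 fold change of *lal−/−* over *lal+/+* cells (horizontal axis) of the 10 genes and the 47 measured genes of related lists, 1 point for each gene, by gene list (vertical axis), colored by whether the gene was called higher, lower or not, with a dotted line at the median of all genes (0.08). The called genes of condensin, of cohesion protection and of mitotic chromosomes lie between 1.10 and 2.49, and those of the SMC5/SMC6 complex, *Smchd1* and *Akap8* lie between -1.73 and -1.02.

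The marker lists differed as follows, where 7.41% of all probe sets were called higher and 3.44% lower. Among the promyelocyte and primary granule markers *Mpo* had a difference of 3.75. Their summed linear level was 260.1 to 268 on the *lal+/+* arrays and 2740.3 to 2825 on the *lal−/−* arrays. The B cell markers had sums of 5065 to 5521 against 399 to 407. The macrophage markers had 5293 to 5767 against 595 to 609. Of 5 T and NK cell markers 3 were lower, with 3176 to 3269 against 626 to 658. *Ms4a1* of B cells (10.43 and 10.57) and *Mrc1* of macrophages (9.90 and 9.54) were thus well above background on the *lal+/+* arrays, although the cells had been selected for Ly6G.

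*Ly6g*, the gene of the selection antigen, was itself higher in *lal−/−* cells by 2.88 (12.91 and 12.84 against 10.19 and 9.80), and *Itgam*, which encodes CD11b, by 1.19 (1.80 with a common median). Secondary granule markers were higher in 4 of 5 cases, with sums of 18074 to 18767 against 42953 to 44761. Of 4 markers of mature neutrophils 1 was higher and 2 were lower, with sums of 16293 to 16490.4 against 14368 to 14480.0. *Kit* of progenitors rose by 1.23, and it was the only gene called among 3 progenitor markers (191 to 193 against 289.7 to 294). Of 2 eosinophil markers 1 was higher, *Prg2* by 1.44 (adjusted p = 0.000405 from limma), with sums of 378 to 418 against 979 to 1085. Of 3 measured erythroid markers 0 were called, and of 2 megakaryocyte markers 0.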

How the data were processed

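The authors imported scans of Affymetrix Mouse Gene 1.0 ST arrays into Partek Genomics Suite and normalized and summarized them by RMA, which gave the deposited log2 values, 1 for each of 35557 probe sets and each of 4 arrays. The labels name GCOS 1.1 as a further tool. The labels and the methods differ on the amplification kit. Probe sets were named through the platform annotation, with symbols updated through Entrez IDs to RefSeq. Of these 21789 name 1 gene and were tested, while 1621 with several genes were left out. The deposited column medians differed by up to 0.208, with both *lal−/−* medians below both *lal+/+* medians. This was above the limit of 0.1, so arrays were quantile normalized.

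Genotype was the only term of a linear model in limma 3.58.1 (R 4.3.3) with empirical Bayes variances (prior degrees of freedom 4.83, residual 2), since the tissue term of the study's model does not apply to 1 tissue. Adjustment was by Benjamini-Hochberg over the 21789 probe sets. Where a gene had several probe sets, that with the highest mean was used. The procedure was tested on simulated data. Standard errors come from this fit and SDs from 2 arrays. The number of arrays limits the precision. All 10 members, genes of the fixed lists and *Lipa* could be named. Members and lists were chosen with earlier results of these data known. Same-numbered arrays of the genotypes did not deviate together (r = -0.18 across probe sets), so the replicate number was not used as a block. Promoter windows are from RefSeq.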

Additional observations from a re-analysis of the deposited data

How the results depend on the processing

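The scaling (common median, values as deposited), the probe sets tested (the brighter ones, all), the variance model (intensity trend and robust, ordinary), a replicate block, the thresholds (no fold, adjusted p under 0.01), averaging probe sets per gene and leaving out each array were varied. Of 150 values of the 10 genes, those of a crossed block added after the data were seen included, 130 kept direction and call, 6 reversed, 4 lost the call and 10 gained it. The reversals were those of *Smc4* (0.21 and 0.033), *Smc1a* (0.47 and 0.29) and *Smc3* (0.42 and 0.24) with a common median and with the values as deposited. *Pttg1* reversed in the same settings (0.24 and 0.061). The difference of condensin minus cohesin was 0.79 in both settings. The cohesin genes called higher were 1 with a common median and 1 without a fold threshold. The genes of other lists called were 17 (higher) and 2 (lower) with a common median, while the deposited scaling gave 14 and 2.

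Over all genes, 2619 were called higher and 467 lower with a common median, against 1508 and 646. The ordinary linear model, with 2 residual degrees of freedom, called 0 condensin genes (5 of 7 at an unadjusted p under 0.05), 0 genes of other lists higher and 0 lower. It called 0 of all 19938 genes, of which 5691 had an unadjusted p under 0.05. Leaving out 1 array gave 4 to 5 condensin genes, 0 cohesin genes, 13 to 14 genes of other lists higher and 3 to 4 lower, and a condensin minus cohesin difference of 1.04 to 1.13. With the replicate block 4 condensin and 0 cohesin genes were called, and no call of the 10 genes changed. Because same-numbered deviations correlated at -0.18, the crossed block paired the arrays the other way, and it called 4 condensin and 0 cohesin genes. Signal close to the background of silent genes limits the fold changes of *Ncapd2*, *Ncaph*, *Ncapd3*, *Ncapg2* and called genes of other lists.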
